A study of Mus musculus with 10 samples.

Results

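Short RNA fragments of 5 noncoding genes were followed: the Y RNAs Rny1 and Rny3, the 7SK RNA Rn7sk, the RNase MRP RNA Rmrp and the RNase P RNA Rpph1. The genes were listed by name, and their fragments were the reads of 18 nt or longer that matched a GENCODE M21 transcript of the gene exactly and in sense. These 5 were among 1901 small noncoding genes with at least 1 such read. The genes were chosen by their summed fragment levels, start positions and lengths in these libraries, so levels, ends and lengths are given as a description, also between groups. Differences in them carry an SE but no p-value, and counts of genes past a threshold are printed beside the share over all genes with nothing read from them. For the 5 genes, only the added bases at fragment ends, which the choice did not use, are given with a p-value.

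RNA polymerase III makes these RNAs, and its transcripts end in a short run of U. A Y RNA folds so that its 5′ and 3′ ends pair into a stem around a loop, the Ro60 protein binds the stem, the La protein binds the terminal U run, and Y RNAs are known for giving fragments from their ends in many tissues. 7SK RNA holds the elongation factor P-TEFb in an inactive complex, RNase MRP RNA is the catalytic core of an enzyme that processes precursor rRNA, and RNase P RNA is the catalytic core of the enzyme that cuts the 5′ leader from precursor tRNA.

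The libraries held RNA of Day 6 mouse embryoid bodies, made from male embryonic stem cells by way of epiblast-like cells and cultured with BMP4, BMP8, LIF, SCF and EGF. The lines were E14 (129/Ola), BG5 (C57BL/6J/DBA/129) and SGET (B6CBA/129). Primordial germ cell-like cells (mPGCLCs) were sorted from the E14 and BG5 bodies, and the surrounding cells of the same bodies (non-PGCLCs) from E14, BG5 and SGET, with 2 libraries in each of the 5 groups. By the study's methods E14 cells, which carry no reporter, were gated on the surface antigens Ssea1 and Cd61, BG5 cells on Ssea1 and a Blimp1-GFP reporter and SGET cells on Stella-GFP and Esg1-tdTomato, whereas the labels name the Stella-GFP and Esg1-tdTomato gate throughout. Each line is a single cell line, the gate differed with the line, and nothing in the labels says that replicates came from separate differentiations, so p-values measure the spread between these libraries, which may be technical.

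The libraries held 7421061 to 14444567 mapped reads, and levels are given as RPM (reads in every 1000000 mapped reads). Reads of 15 to 19 nt took 42.8% to 67.3% of a library, with the highest shares in BG5 mPGCLC (61.2% and 67.3%). The summed RPM of 12 miRNA genes with reads from a list of 14 typical of pluripotent or germ cells was 51193 to 54804 in E14 mPGCLC against 24783 to 33466 in E14 non-PGCLC, and 20435 to 26829 in BG5 mPGCLC against 2471 to 3376 in BG5 non-PGCLC. SGET non-PGCLC stood at 40098 to 46544 RPM for the same list, above BG5 mPGCLC and E14 non-PGCLC. The 9 mesenchymal miRNA genes listed went the other way, from 425 to 550.2 RPM in mPGCLC to 3384 to 57356 RPM in the non-PGCLC of the same lines. The 4 epithelial miRNA genes were higher in mPGCLC than in non-PGCLC of E14 (1461 to 1571 against 818 to 914 RPM) and of BG5 (2505 to 3636 against 924 to 1089 RPM), with 2135 to 2373 RPM in SGET non-PGCLC, and the 2 blood or endothelial miRNA genes with reads were higher in mPGCLC than in non-PGCLC of E14 (91.4 to 108 against 5.52 to 49.7 RPM) and lower in BG5 (63.0 to 68.8 against 103 to 115 RPM). The part of these differences in the results was not tested, and in such bulk samples fewer cells of a type and less RNA per cell cannot be told apart.

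Rny1 and Rny3 lie on chromosome 6 of GRCm38, 6343 bases apart on opposite strands. The transcript of Rny1 is chr6:47788069-47788180 on the minus strand (112 nt) and that of Rny3 is chr6:47781624-47781725 on the plus strand (102 nt), and RefSeq ends each 1 base earlier at the 3′ end. Their whole transcripts are shown because most fragments came from the ends. With end windows of 10 positions, at most 8.98% of the Rny3 reads of a library lay at neither end. With windows of 5 positions, 13.3% to 27.6% of Rny1 reads and 9.37% to 42.2% of Rny3 reads did. The capitals mark the commonest fragment that starts in the first 5 positions and the commonest that ends in the last 5.
Rny1: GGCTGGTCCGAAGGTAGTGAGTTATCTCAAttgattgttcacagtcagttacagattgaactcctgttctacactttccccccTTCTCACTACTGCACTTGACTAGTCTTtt
Rny3: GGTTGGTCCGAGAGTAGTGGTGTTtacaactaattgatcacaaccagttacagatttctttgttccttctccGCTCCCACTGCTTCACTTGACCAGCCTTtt
The genes shared 16 of their first 20 bases and 17 of their last 20. In the minimum free energy structure from RNAfold, 17 base pairs joined the marked 5′ and 3′ stretches of Rny1, and 21 joined those of Rny3.

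The order of the summed levels was Rny1, Rny3, Rmrp, Rn7sk and Rpph1. Rny1 had 2891 and 2343 RPM in E14 mPGCLC, 3056 and 2902 in E14 non-PGCLC, 1236 and 1727 in BG5 mPGCLC, 2142 and 1958 in BG5 non-PGCLC, and 2172 and 3023 in SGET non-PGCLC. Rny3 had 688 and 671 RPM in E14 mPGCLC, 791 and 804 in E14 non-PGCLC, 461 and 550.1 in BG5 mPGCLC, 977 and 927 in BG5 non-PGCLC, and 507 and 833 in SGET non-PGCLC. The lowest Rny1 library (1236 RPM) lay above the highest Rny3 library (977 RPM), and the lowest Rny3 library (461 RPM) above the highest Rmrp library (314 RPM).

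Rmrp had 231 and 138 RPM in E14 mPGCLC, 274 and 209 in E14 non-PGCLC, 77.7 and 94.6 in BG5 mPGCLC, 251 and 139.8 in BG5 non-PGCLC, and 124 and 314 in SGET non-PGCLC. Rn7sk ranged from 9.88 RPM in BG5 mPGCLC replicate 2 to 135 RPM in SGET non-PGCLC replicate 2, and its range overlapped that of Rmrp, though Rmrp was higher in 9 of 10 libraries. Rpph1 ranged from 2.61 RPM (21 reads) to 80.6 RPM (788 reads), and Rn7sk was above it in all 10 libraries while their ranges overlapped. These levels compare fragments and not the full-length RNAs, which are too long for the libraries.

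**Figure D1:**
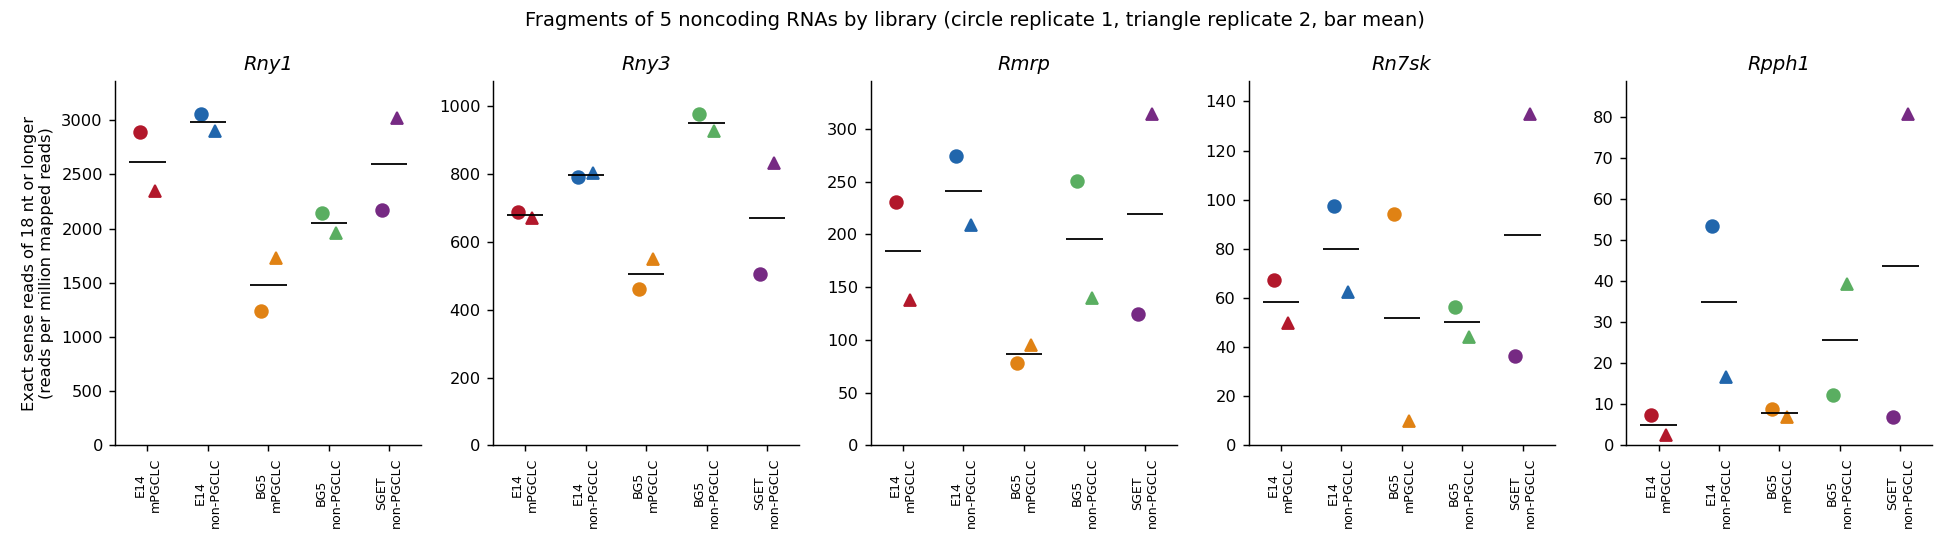
RPM (y axis, linear, a separate scale for each gene) of the exact sense fragments of each gene in every library, by group (x axis), with circles for replicate 1, triangles for replicate 2 and a bar at the mean of 2. Rny3 replicates lay closer together in E14 and BG5 than in SGET, where replicate 2 lay above replicate 1 for all 5 genes, with the largest ratio for Rpph1 (80.6 against 6.80 RPM).

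The fragments of the genes differed in how often the same sequence recurred. Rny1 gave 220 distinct sequences, of which 22 were present in all 10 libraries and 80 in a single library. Rny3 gave 250 distinct sequences, 6 of them in all 10 libraries and 97 in 1. Rmrp gave 77, with 4 in all libraries and 43 in 1. By contrast, no sequence of Rn7sk (89 in all) or Rpph1 (28 in all) was present in all 10 libraries, and 63 and 27 of them, respectively, were found in a single library.

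A single library held 54 to 109 distinct Rny1 sequences behind 10195 to 37434 reads, and 55 to 109 distinct Rny3 sequences behind 3802 to 13385 reads. Rn7sk rested on 4 to 23 distinct sequences and Rpph1 on 1 to 7 in any library. Molecular identifiers were not used in counting, so copies of 1 molecule could not be told from separate molecules, and the values of Rn7sk and Rpph1 are those of a few sequences. The commonest sequence took 74.5% of the Rn7sk reads of SGET non-PGCLC replicate 2 and 100% of the Rpph1 reads of BG5 mPGCLC replicate 1.

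Along the transcript of Rny1, fragments formed a block at each end. With end windows of 10 positions, at most 3.01% of the Rny1 reads of a library lay at neither end. By start position, 39.6% of its mean level began at position 84, 33.0% at position 1 and 17.3% at position 83. The 5′ fragments, taken as reads that started within the first 5 positions, peaked at 30 nt in 8 of 10 libraries and at 31 nt in the E14 non-PGCLC libraries. The last base of a 5′ fragment was at position 30 for 35.9% of the mean level, at 31 for 25.4% and at 34 for 18.3%. The 3′ fragments, taken as reads that ended within the last 5 positions, peaked at 27 nt in 9 of 10 libraries, and at 28 nt in SGET non-PGCLC replicate 1.

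The commonest 3′ fragment of Rny1 covered positions 84 to 110 (27 nt, chr6:47788071-47788097). It was at 342 and 334 RPM in E14 mPGCLC, 346 and 406 in E14 non-PGCLC, 171 and 257 in BG5 mPGCLC, 325 and 414 in BG5 non-PGCLC, and 359.8 and 772 in SGET non-PGCLC. The commonest 5′ fragment covered positions 1 to 30 (chr6:47788151-47788180) and was at 163 to 412 RPM, with a mean of 277 RPM over the 10 libraries. A further set began at the same position 84 but stopped at position 106, 6 bases before the annotated end, just before the terminal run of pyrimidines. Its 23-nt read (positions 84 to 106) was present in every library at 93.0 to 272 RPM. Among reads centred nearer the 3′ than the 5′ end, those ending at position 106 made 16.9% of the mean level and those ending at 110 made 38.9%.

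**Figure D2:**
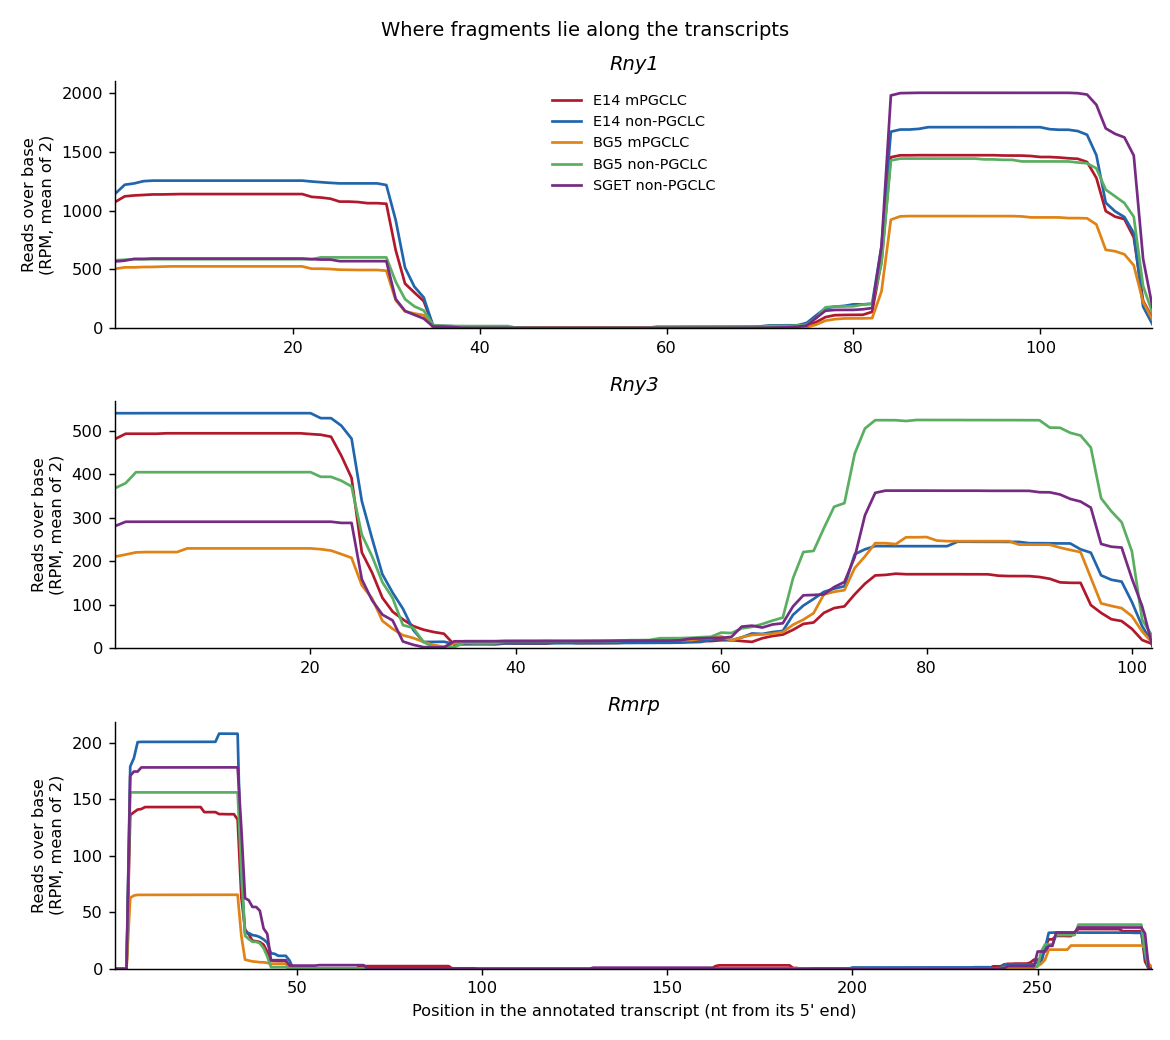
RPM over each base (y axis, linear, mean of 2 libraries) by position in the annotated transcript (x axis, nt from the 5′ end) for Rny1, Rny3 and Rmrp, with a line for each group. Rny1 shows blocks at positions 1 to about 30 and 84 to 110, Rny3 shows the same pattern with sloped inner edges, and Rmrp shows a block from position 5 with a low block at its 3′ end.

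Rny3 fragments came from the same ends but had shorter 5′ fragments and less sharply placed inner ends. Position 1 opened 52.3% of the mean level, followed by position 73 with 9.05% and position 74 with 6.03%. The 5′ fragments peaked at 24 nt in 9 of 10 libraries and at 26 nt in BG5 mPGCLC replicate 2. The commonest of them, positions 1 to 24 (chr6:47781624-47781647), was at 34.7 to 212 RPM. The 3′ fragments had no common length, since their peak lay between 26 and 33 nt depending on the library, and their median length was 31 nt. Rny3 thus gave its 5′ fragments 6 nt shorter than Rny1 at the peak of the mean profile (24 against 30 nt), although the first bases of both genes are nearly the same.

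**Figure D3:**
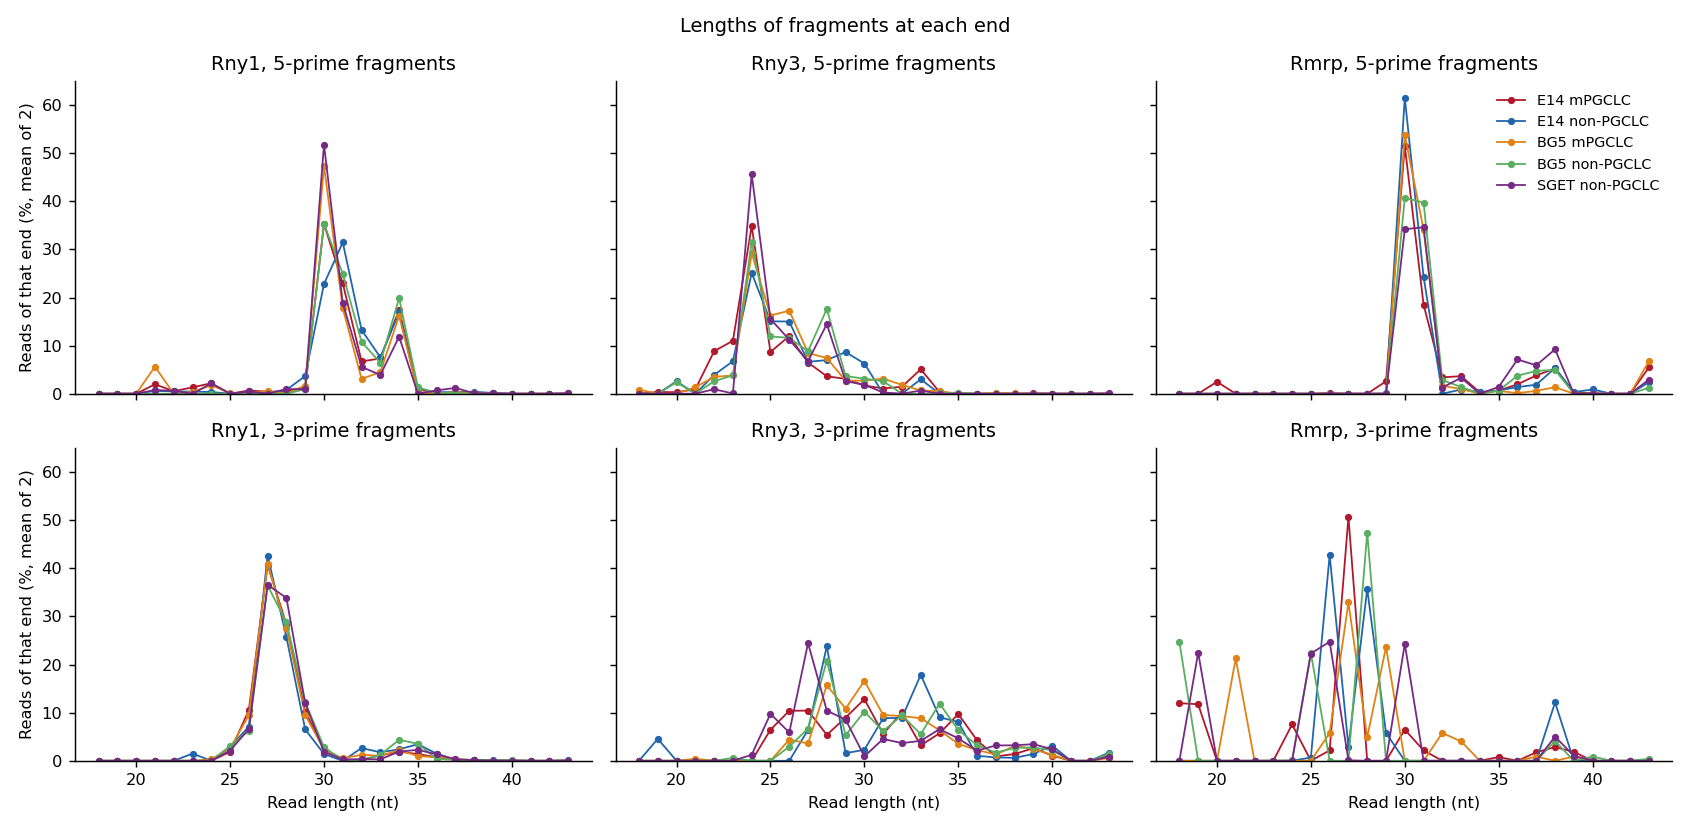
Share of the reads of an end (y axis, %, mean of 2 libraries) by read length (x axis, nt) for 5′ fragments in the upper row and 3′ fragments in the lower row, with a line for each group. Rny1 peaked at 30 or 31 nt at its 5′ end and at 27 nt at its 3′ end, Rny3 at 24 nt at its 5′ end with a broad 3′ profile, and Rmrp at 30 or 31 nt at its 5′ end with an irregular 3′ profile.

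The balance of the ends differed between the Y RNAs. With reads ending up to 10 positions before the annotated end counted as 3′ fragments, which takes in those ending at position 106, the 3′ fragments of Rny1 outnumbered its 5′ fragments in all 10 libraries. The ratio of 5′ to 3′ reads of Rny1 was 0.787 ± 0.0214 (SD, n = 2) in E14 mPGCLC, 0.746 ± 0.0670 in E14 non-PGCLC, 0.551 ± 0.264 in BG5 mPGCLC, 0.413 ± 0.102 in BG5 non-PGCLC and 0.316 ± 0.129 in SGET non-PGCLC. For Rny3 the ratio was above 1 in all E14 libraries, at 3.13 and 3.40 in mPGCLC and at 1.31 and 4.37 in non-PGCLC. In the other lines it was 0.999 and 0.986 in BG5 mPGCLC, 0.635 and 0.999 in BG5 non-PGCLC. In SGET non-PGCLC it was 0.569 in replicate 2 but above 1 in replicate 1, higher than the 1.31 of E14 non-PGCLC replicate 1, with a mean of 1.04 ± 0.662 (SD, n = 2). The difference between lines was not tested, and the replicates of E14 non-PGCLC alone spanned 1.31 to 4.37. With the narrower window of 5 positions, Rny1 had more 5′ than 3′ reads in 4 of 10 libraries, all of them E14, and Rny3 in 8 of 10.

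Rmrp (chr4:43492783-43493063, minus strand, 281 nt) was mainly seen as a 5′ fragment. The gene overlaps an exon of Ccdc107 on the other strand (chr4:43492900-43493023), and no antisense read of Rmrp was found. Position 5 opened 76.1% of its mean level, and this position is 43493059, the first base of the RefSeq gene, which begins 4 bases inside the GENCODE transcript used. The fragments of 30 nt (positions 5 to 34) and 31 nt (positions 5 to 35) were in every library, at 26.4 to 134 RPM and 16.7 to 96.2 RPM. The 31-nt sequence is shown with the 30-nt fragment in capitals, followed by the last 32 bases of the transcript with the commonest 3′ fragment (positions 253 to 278) in capitals.
Rmrp 5′: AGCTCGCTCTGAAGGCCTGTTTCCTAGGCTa
Rmrp 3′: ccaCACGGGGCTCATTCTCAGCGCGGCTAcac
The 5′ fragments were 66.3% to 83.7% of Rmrp reads, and the 3′ fragments had a median of 16.6%. The 5′ to 3′ ratio was above 1 in all 10 libraries, from 2.15 to 6.89 with the window of 5 positions. The 3′ fragments were less regular: the commonest was found in 5 libraries, at up to 14.3 RPM, and the library peaks ran from 18 to 30 nt.

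Rn7sk (chr9:78175303-78175633, minus strand, 331 nt) had no fragment that recurred in all libraries. A read starting at position 209 (20 nt) took 15.4% of its mean level but occurred in 1 library only. The 27-nt read from its first base was in both E14 non-PGCLC libraries (9.70 and 24.2 RPM) and in BG5 mPGCLC replicate 1 (16.0 RPM), and 5′ fragments were missing in 4 of 10 libraries. Between 39.6% and 97.6% of Rn7sk reads in a library also matched another annotated gene, among them Gm24447 and Gm26315, so its level is uncertain. With these reads left out, Rn7sk was at 1.04 to 28.6 RPM.

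Rpph1 (chr14:50807449-50807767, minus strand, 319 nt) had 1 recurring read, of 28 nt at positions 286 to 313 (chr14:50807455-50807482), found in 5 libraries at up to 23.1 RPM. Reads starting at position 148 took 20.2% of its mean level in 3 libraries, mostly at 18 nt, and reads of 30 nt starting at 157 took 13.1% in 1 library. The 28-nt read is given as the sole sequence of this gene seen in more than 1 library.
Rpph1: cctcataacccaattcagactactctcc
The transcript overlaps an exon of Ccnb1ip1 on the same strand (chr14:50807500-50807732), and 0% to 96.7% of Rpph1 reads in a library matched another gene too. RefSeq extends Rpph1 by 4 bases at the 5′ end and by 2 at the 3′ end. When reads were allowed to run past the annotated end or to hold up to 2 mismatches after 18 exact bases, the level of Rpph1 was 1.14 to 10.95 times that of exact reads depending on the library, and ran from 18.7 to 270.3 RPM. The same ratio was 1.47 to 2.22 for Rny1, 1.26 to 1.76 for Rny3 and 1.02 to 1.17 for Rmrp.

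Many 3′ fragments of the Y RNAs ended in adenosines that the transcript does not hold there. Reads of 18 to 40 nt were followed base by base from an exact start of 18 nt, and those that left the transcript and went on with 1 to 4 A bases to their end were called A-tailed. In this measure a read belonged to the 3′ end if its last matching base lay within about 8 positions of the transcript's end, and otherwise to the 5′ end if it began within the first 5 positions. An added A that equals the next base of the transcript cannot be seen. Rny1 3′ fragments ended in such A bases in 44.9% and 49.7% of reads in E14 mPGCLC, 45.3% and 41.3% in E14 non-PGCLC, 32.1% and 44.7% in BG5 mPGCLC, 55.6% and 46.9% in BG5 non-PGCLC, and 45.1% and 38.7% in SGET non-PGCLC. Over the 10 libraries the share was 32.1% to 55.6% at the 3′ end of Rny1 and 1.78% to 9.43% at the end of its 5′ fragments. Rny3 showed the same contrast, with 23.4% to 51.9% for 3′ fragments and 0.0695% to 7.67% for 5′ fragments. For both Y RNAs the lowest 3′ library lay above the highest 5′ library, so the ends did not overlap. This measure was added after the data were examined.

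The A bases mostly followed 2 positions in the terminal U run. Of the A-tailed Rny1 level, 62.0% carried its A after position 110 and 23.1% after position 109, where the transcript goes on with U. At position 110, 59.3% of the mean level had an A tail and 40.7% had none. Among Rny1 reads that stopped at position 106, 30.5% were A-tailed. The commonest fragment of Rny1 is shown with its added base in capitals.
Rny1 with added A: ttctcactactgcacttgactagtcttA
This 28-nt read had a mean of 393 RPM over the 10 libraries, against 373 RPM for the same fragment without it, and it was the more frequent form in 4 of 10 libraries. A single A made up a median of 71.2% of the A tails of Rny1 over the libraries and 86.8% of those of Rny3. Tails of 2 A made a median of 22.0% and 13.2%. Alignment by the authors allowed 2 mismatches, which limits longer tails. The 20 commonest A-tailed reads of each Y RNA held 88.5% and 66.7% of the A-tailed level, and none matched an annotated transcript. Gene copies outside the annotation were not searched here.

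**Figure D4:**
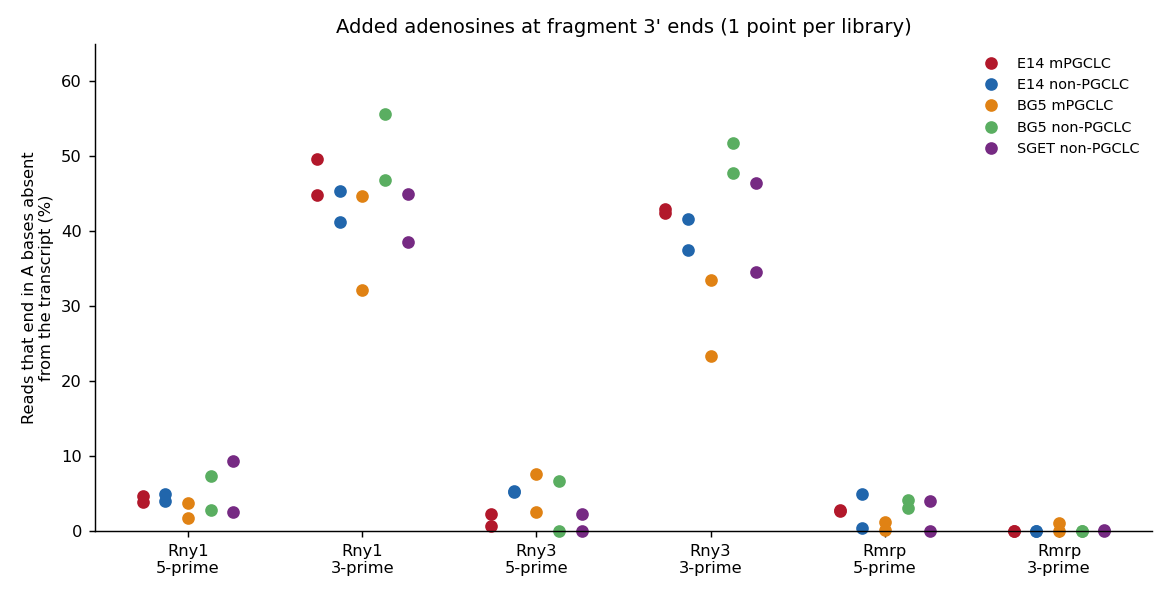
Share of reads (y axis, %) that end in 1 to 4 A bases absent from the transcript, for the 5′ and 3′ fragments of Rny1, Rny3 and Rmrp (x axis), with a point for each library coloured by group. The 3′ fragments of Rny1 (32.1% to 55.6%) and Rny3 (23.4% to 51.9%) lie above all their 5′ fragments, and those of Rmrp have a median of 0%.

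A-tailed reads were 0.0796% of the 3767 Rmrp 3′ reads over all libraries, and there were 0 among the 492 of Rn7sk, which allows a share of up to 0.610% by counting alone. Rmrp 3′ reads carried added U in 45.1% and 19.7% of reads in E14 non-PGCLC, in 0% and 27.4% in E14 mPGCLC, and in 0% to 9.22% in the other libraries. Rn7sk 3′ reads went on with U in 1 library, SGET non-PGCLC replicate 2 (163 of 259 reads, 62.9%). RefSeq ends Rn7sk 1 base further on, and whether the genome encodes this U was not checked. Rpph1 3′ reads went on with other bases in a median of 88.1% over the libraries, and RefSeq places the end of this gene 2 bases further on. Of 195 snoRNA genes with at least 200 such reads over all libraries, the median share of A tails was 0.0465%, and 8 had a share at or above that of Rny1 (45.1% over all its 3′ reads). The median was 4.15% over 193 snRNA genes, 13.6% over 8 other miscellaneous RNA genes and 23.7% over 67 rRNA genes, and 0 of these rRNA genes reached Rny1. Over all 485 genes outside the miRNAs it was 4.15%, and 15 reached Rny1 and 17 Rny3. These counts repeat reads that gene copies share, as for 5S rRNA, U6 and the pair Rn7s1 and Rn7s2, so genes in them are not independent. Among the other polymerase III transcripts, the identical signal recognition particle RNA genes Rn7s1 and Rn7s2 had 86.6% A-tailed reads of 4828, the vault RNA Vaultrc5 23.1% of 2710 and the U6 RNA Rnu6 4.15% of 2170.

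The comparison of mPGCLC with non-PGCLC asks whether germ cell-like cells hold more or fewer of these fragments than the cells around them. The fragments of Rny3 were lower in all 4 mPGCLC libraries (461 to 688 RPM) than in all 4 non-PGCLC libraries of the same lines (791 to 977 RPM). In edgeR's fit over all genes the log2 change of Rny3 was -0.57 (SE 0.25). The log2 change was -0.33 for Rny1 (SE 0.23), -0.78 for Rmrp (SE 0.43), -0.20 for Rn7sk (SE 0.78) and -2.26 for Rpph1 (SE 1.16). The count past an adjusted p of 0.05 was 0 of 5 in edgeR, against 48 of 986 genes (4.87%), and at an unadjusted p under 0.05 it was 1 of 5 and 164 of 986.

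All 5 estimates lay below 0 while the median over all genes tested was 0.33. Relative to that median, the changes were -0.66 for Rny1, -0.91 for Rny3, -1.12 for Rmrp, -0.53 for Rn7sk and -2.60 for Rpph1, and with the other scalings Rny3 lay between -0.92 and -0.89. The 4 mPGCLC libraries lay wholly below the 4 non-PGCLC libraries for Rny3 and Rpph1, which is 2 of 5 genes against 1.93% of the genes tested. Within both lines, mPGCLC lay below non-PGCLC without overlap for Rny1, Rny3 and Rpph1, which is 3 of 5 against 5.68%. Rny3 kept both patterns with inexact reads, with reads of 20 nt or longer and without reads shared with other genes, but Rny1 overlapped within E14 with inexact reads and with reads outside miRNA hairpins as the denominator, and Rpph1 overlapped within BG5 with inexact reads and within both lines without shared reads.

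By DESeq2 the log2 change of Rny3 was -0.93, and the count was 1 of 5 and 130 of 986. When each distinct sequence was counted 1 time instead of by its reads, the sign turned for Rny1, Rny3, Rmrp and Rn7sk, with log2 changes between 0.21 and 0.79. That setting also took the number of distinct sequences in a library as its size, so the denominator changed with the count. With reads of 18 nt or longer as the library size, the change of Rny3 was -0.55.

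**Figure D5:**
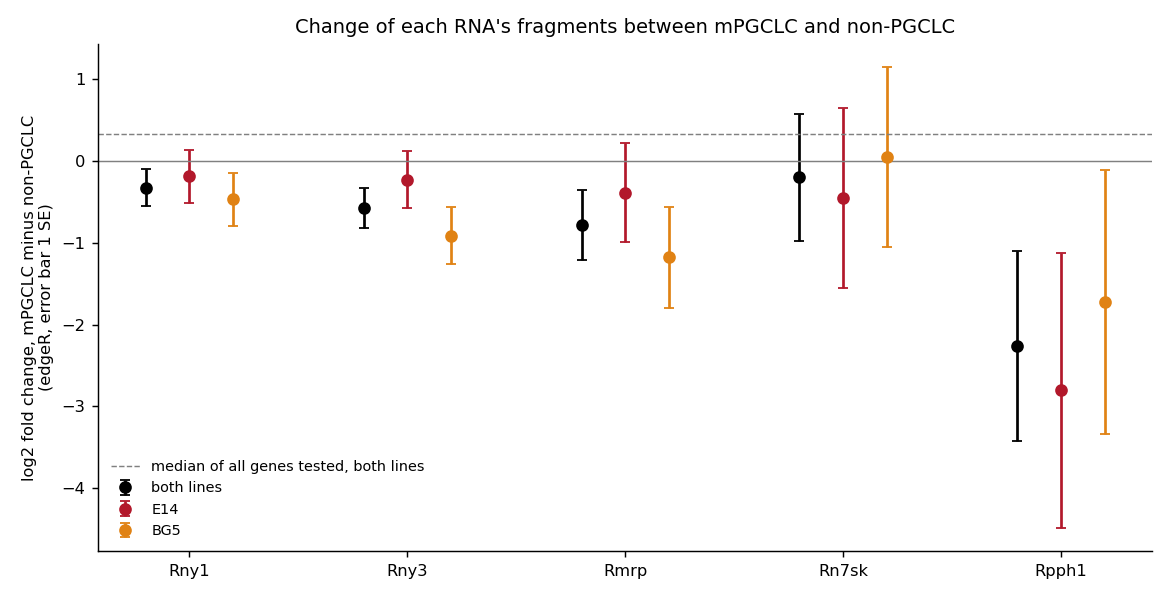
The log2 fold change of each gene's fragments, mPGCLC minus non-PGCLC (y axis, points with bars of 1 SE from edgeR), over both lines and within E14 and BG5 (colours). The solid line marks 0 and the dashed line the median of all genes tested over both lines (0.33), which applies to the estimates over both lines only. That median was 0.067 within E14 and 0.27 within BG5. Estimates over both lines run from -0.20 (Rn7sk) to -2.26 (Rpph1).

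Within E14, the log2 change was -0.23 for Rny3 (SE 0.35) and -0.19 for Rny1 (SE 0.32). The count was 0 of 5 against 0.609% of all (6 of 986) in edgeR, with 0 of 5 and 69 of 986 at an unadjusted p under 0.05, and 0 of 5 and 48 of 986 by DESeq2. Within BG5, the log2 change was -0.91 for Rny3 (SE 0.35), -0.47 for Rny1 (SE 0.32) and -1.18 for Rmrp (SE 0.61). The count was 0 of 5 against 4.77% of all (47 of 986) in edgeR, with 1 of 5 and 151 of 986 at an unadjusted p under 0.05. The log2 change of Rny3 within BG5 was -1.25 with TMM scaling and -1.39 in DESeq2. The count within BG5 was 1 of 5 and 66 of 986 with TMM scaling, and 1 of 5 and 134 of 986 in DESeq2. The BG5 mPGCLC libraries lay below the BG5 non-PGCLC libraries for 4 of 5 genes (all but Rn7sk), against 17.3% of the genes tested.

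The difference between the lines in this effect, BG5 minus E14, was -0.68 for Rny3 (SE 0.49), -0.28 for Rny1 (SE 0.45) and -0.79 for Rmrp (SE 0.86) on the log2 scale. It went the other way for Rn7sk (0.50, SE 1.55) and Rpph1 (1.08, SE 2.23). The count was 0 of 5 in edgeR against 1.52% of all genes (15 of 986), with 0 of 5 and 100 of 986 at an unadjusted p under 0.05, and by DESeq2 it was 0 of 5 and 81 of 986. Among the non-PGCLC of the 3 lines, the count was 0 of 5 in edgeR against 11.8% of all (116 of 986). At an unadjusted p under 0.05 it was 0 of 5 and 266 of 986, and by DESeq2 it was 1 of 5 and 233 of 986.

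By fragment end, the 3′ fragments of Rny3 were at 54.5 and 79.5 RPM in E14 mPGCLC, 226 and 89.3 in E14 non-PGCLC, 55.3 and 140 in BG5 mPGCLC, and 400.3 and 230.1 in BG5 non-PGCLC, so that the cell types overlapped over both lines but not within either line. How many of all gene ends show such a pattern was not counted. The log2 change of the 3′ fragments of Rny3 was -1.46 (SE 0.56) in edgeR. With end windows of 10 positions the cell types overlapped within E14 too, and the log2 change was -0.90, or -0.77 when reads were assigned to the nearer end. The log2 change was -0.50 for the 5′ fragments of Rny3 (SE 0.29), -0.42 for the 3′ fragments of Rny1 (SE 0.28) and -0.16 for the 5′ fragments of Rny1 (SE 0.33). For Rmrp it was -0.85 at the 5′ end (SE 0.49) and -0.43 at the 3′ end (SE 0.62). Rn7sk had 3′ fragments in 5 libraries, at up to 20.6 RPM and in neither non-PGCLC group of E14 and BG5, so no fold is given. The count past the threshold was 0 of 790 gene ends in edgeR (0%), with 98 at an unadjusted p under 0.05. By DESeq2 it was 28 of 790, and 2 of the 14 rows of the 5 genes, ends and internal reads together.

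The 5′ to 3′ balance within a gene was compared by limma on log2 ratios. The log2 difference in balance was 0.22 for Rny1 (SE 1.09), 0.96 for Rny3 (SE 1.18), -0.40 for Rmrp (SE 1.12), -3.41 for Rn7sk (SE 1.41) and 0.16 for Rpph1 (SE 2.16). The values of Rn7sk and Rpph1 are set largely by the pseudocount of 1 and should not be read as ratios of the ends. The 5′ end of Rpph1 was at 0 in 9 libraries, among them every E14 and BG5 library. The 3′ end of Rn7sk was at 0 in 5, among them every non-PGCLC library of E14 and BG5. The count was 0 of 298 genes (0%), and 39 had an unadjusted p under 0.05.

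The share of A-tailed 3′ fragments was tested in the same way. Its log2 difference was -0.27 for Rny1 (SE 0.93, adjusted p = 0.97) and -0.57 for Rny3 (SE 0.93, adjusted p = 0.97). Rmrp had 3 A-tailed 3′ reads in all and Rpph1 had 1, so no difference is given for them. None of 156 genes passed in limma (0%), and 10 had an unadjusted p under 0.05.

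The other polymerase III transcripts of the list, which holds the signal recognition particle RNAs, vault RNA, U6 RNA, extra RNase P RNA copies, Bc1 and the 5S rRNA genes (n-R5s), gave 75 rows of distinct counts. None passed between mPGCLC and non-PGCLC in edgeR, 4 had an unadjusted p under 0.05 and the lowest adjusted p was 0.15. Their median log2 change was 0.34, against 0.33 over all genes, and most rows were 5S copies that share reads. Rn7s1 and Rn7s2, which share all their reads, had 72.8 to 225 RPM, Rn7s6 had 6.85 to 68.8 RPM and Vaultrc5 had 0 to 37.2 RPM, with none of its reads in 1 library. The log2 change was -0.08 for Rn7s1 and Rn7s2 (SE 0.43), -0.60 for Rn7s6 (SE 0.88) and -0.21 for Vaultrc5 (SE 1.74). Rprl1 and Rprl2 were at 0 in 7 and 9 libraries, Rprl3 was at 0 in all 10, Rnu6 had at most 7.98 RPM and Bc1 2 reads in all.

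Over the 10 libraries, the genes whose log2(RPM + 1) followed Rny1 most closely among 889 with a mean of at least 5 RPM were Snord52 (r = 0.90), Gm23928 (r = 0.83) and Snord85 (r = 0.83). For Rny3 they were Mirlet7b, Mirlet7d and Mir351 (r = 0.82, 0.82 and 0.81), and for Rmrp Snord85, Mir194-2 and Gm24920 (r = 0.86, 0.86 and 0.82). Rn7sk was closest to Gm24447 (r = 0.97), with which it shares reads, to Gm26315 (r = 0.87) and to mt-Tp (r = 0.87), and Rpph1 to Mir365-1 (r = 0.76), Gm26315 (r = 0.70) and Mir5110 (r = 0.63). Among the genes themselves, Rny1 and Rmrp had r = 0.88, Rny3 and Rmrp r = 0.77 and Rny1 and Rny3 r = 0.58. These values describe libraries that share 5 groups and a common denominator.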

How the data were processed

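Small RNA of sorted Day 6 cells was sequenced with adapters that carry 4 random bases. The authors trimmed reads with cutadapt 3.2, removed the random bases, kept reads of at least 15 nt, aligned them end to end to GRCm38 with STAR 2.5.3a with at most 2 mismatches and deposited counts of each distinct sequence. Reads run to 43 nt, and a 43-nt read has no adapter, so its 3′ end is not that of the fragment. The members and lists were chosen with earlier results of these data known.

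Reads of 18 nt or longer were matched exactly and in sense to GENCODE M21 small noncoding transcripts and counted for each gene matched, and genes with equal counts in all libraries were merged. Counts were fitted with edgeR's quasi-likelihood test (5 group means, file total as library size, filterByExpr), log2 ratios with limma (pseudocount 1, mean of at least 20 reads) and counts again with DESeq2, all with Benjamini-Hochberg adjustment at 0.05. SEs of edgeR were derived from its F statistic. Fits of levels, ends and balance use the measures that chose the 5 genes, so for these genes they give differences and SEs without p-values. Steps were tested on simulated data. Structures were predicted with RNAfold.

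The genes named were the 5 members, the listed polymerase III transcripts, the 3 commonest starts with their lengths, the commonest read of each end and the 3 genes most like each member. Reads that stop at position 106 of Rny1, the 28-nt Rpph1 read and the A-tailed reads were added after their values were seen. Alternatives covered scaling, filter, test, read length, denominator, shared reads, end window, replicate block and each replicate left out. Intervals and limits at 0 cover counting error only.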

Additional observations from a re-analysis of the deposited data

Results flagged for a closer look

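The A-tailed share of Rny3 3′ fragments moved in opposite directions in the lines. It was higher in both E14 mPGCLC libraries (42.7% ± 0.39, SD, n = 2) than in both E14 non-PGCLC libraries (37.5% and 41.7%), a difference of means of 3.15 percentage points, and lower in both BG5 mPGCLC libraries (23.4% and 33.5%) than in both BG5 non-PGCLC libraries (51.9% and 47.8%), a difference of means of -21.3 percentage points. The reads of Rmrp that lay at neither end likewise were lower in both E14 mPGCLC libraries (23.7 and 6.21 RPM) than in E14 non-PGCLC (29.8 and 31.4 RPM), a difference of means of -15.6 RPM. They were higher in both BG5 mPGCLC libraries (1.82 and 3.81 RPM) than in BG5 non-PGCLC (0 and 0.0692 RPM), by 2.78 RPM. With end windows of 10 positions the E14 groups overlapped for Rmrp. Neither difference between lines was tested. How many other genes or gene ends changed in opposite directions in the lines was not counted, so nothing is read from these 2 cases.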

How the results depend on the processing

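The counts of genes past the threshold between cell types, within E14, within BG5, for the interaction and among lines moved with the test and with what was counted. With the DESeq2 test they were 130, 48, 134, 81 and 233, and gene ends gave 28. Without a filter on low counts they moved to 13 (E14), 28 (interaction), 186 (lines) and 6 (gene ends). The interaction count was 23 with TMM and 24 with DESeq2 size factors. With reads matching a single gene it was 9, and the E14 count was 0. With each distinct sequence counted 1 time, an alternative chosen after seeing the data, the counts were 20, 0, 0, 0 and 0, and signs turned over both lines (Rmrp 0.43, Rn7sk 0.79, Rny1 0.21, Rny3 0.27), within E14 (0.72, 0.86, 0.34 and 0.54) and within BG5 (Rmrp 0.15, Rny1 0.081). Library size in that setting was the number of distinct sequences. The log2 change of Rn7sk within BG5 was -0.41 with TMM, -0.43 with DESeq2 size factors and with the DESeq2 test, -0.59 with reads of 20 nt or longer and -1.42 with reads matching a single gene, a setting that gave 0.031 within E14. The cause was not tested.

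Leaving out each library in turn leaves a group with 1 library, assumed to vary like the others. The counts then ran from 49 to 78 between cell types, 7 to 16 within E14, 48 to 84 within BG5, 16 to 40 for the interaction, 112 to 262 among lines, 0 to 3 for gene ends, 0 to 6 for the balance and 0 to 0 for A tails. The highest counts of the first 5 came without SGET non-PGCLC replicate 1 (78, 16, 84, 40 and 262), and without SGET non-PGCLC replicate 2 they were 76, 15, 80, 35 and 188. Counts also moved by over 1.5 times without BG5 non-PGCLC replicate 1 (E14 11, interaction 32, lines 189) or replicate 2 (E14 10, interaction 30), either E14 non-PGCLC library (E14 12 and 12) and either E14 mPGCLC library (lines 185 and 175). Without BG5 mPGCLC replicate 2, gene ends gave 3, the balance 6 and Rn7sk over both lines 0.23, against -1.40 without BG5 mPGCLC replicate 1. Rn7sk within BG5 ran from -2.34 without BG5 mPGCLC replicate 1 to 0.91 without BG5 mPGCLC replicate 2 and was -0.12 without BG5 non-PGCLC replicate 2. The 5′ ends of Rny1 ran from -0.50 without BG5 mPGCLC replicate 2 to 0.073 without BG5 mPGCLC replicate 1, and the balance of Rmrp from -0.80 without E14 mPGCLC replicate 1 to 0.0012 without E14 mPGCLC replicate 2.

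Samples with the same replicate number did not deviate together (r = -0.038 in E14 and 0.037 in BG5 over 1051 genes), and the main fits did not pair them. Noise in low counts weakens such an r, so it cannot show whether these samples share an origin. With a replicate block the counts were 44 between cell types, 7 within E14, 44 within BG5 and 15 for the interaction, with 0 gene ends, 0 balances and 0 A-tail shares, and Rn7sk within BG5 was -0.14. Rpph1 rests on as few as 21 reads in a library and Rn7sk on 101, so their changes are the least precise.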
